A study of Mus musculus with 52 samples.

Results

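Smtn and Gm11946 are a pair of overlapping genes on mouse chromosome 11, in the neighbourhood of Tug1. They were taken by name from the tables of this series, and were chosen by their high mean levels in Tug1-/- relative to wild-type tissue, most of all in testes. These are 2 of the 39144 genes listed in at least 1 tissue. Smtn was listed in all 8 tissues and Gm11946 in 7, with liver the exception. Since that contrast led to the choice, the levels are given here as a description, without a test.

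The study asked what the Tug1 locus, which gives rise to a long noncoding RNA, does in the mouse, and read out polyadenylated RNA of several organs by RNA sequencing. The knockout allele carries lacZ downstream of exon 1 of Tug1, which deletes the rest of the transcribed locus. All samples listed were labelled male. Each genotype had 3 samples of heart, eyes, spleen, liver and embryonic fibroblasts (MEFs, at an early passage), while for prostate there were 3 wild-type and 2 Tug1-/- samples, and for testes 4 wild-type, 4 Tug1-/- and 3 rescue samples. Brain values stood in the same table, but their libraries are outside this series and their number is not used here. Rescue mice were Tug1-/- and carried tg(Tug1), a Tug1 cDNA under a tetracycline-responsive promoter at a random insertion site, together with CAGs-rtTA3, a broadly active activator that doxycycline in the diet switches on.

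The strain named for these groups, wild type included, was Tug1_tm1.1Vlcg, on a mixture of C57BL/6J and 129S6. For eyes, heart, liver, prostate, spleen and MEFs, both genotypes were labelled as backcrossed (N3-C57BL/6J) and free of the Neo selection cassette. In testes the wild-type mice were labelled "no Neo", but the Tug1-/- and rescue mice "Neo, LacZ". The study's methods, in contrast, describe a colony from which the cassette had been removed with Cre. Which of these holds for the testes mice is not settled here. If the labels hold, the effect of the cassette and that of the deletion cannot be told apart in testes. Ages are not given in the labels. The 6 testes samples of F1 hybrid mice (C57BL/6J by CAST/EiJ, wild type or heterozygote) are not analysed here.

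Smtn encodes smoothelin, a protein of the actin cytoskeleton that marks contractile smooth muscle cells of vessels and hollow organs, and that is lost early when such cells stop contracting. Alternative start sites within the gene give a long form, typical of vascular smooth muscle, and a short form, typical of visceral smooth muscle. Gm11946 has no known protein product and lies on the opposite strand, and an RNA of this kind is called antisense to its host gene.

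In the GRCm38 assembly, Smtn (ENSMUSG00000020439.17) occupies chr11:3517523-3540612 on the minus strand, and Gm11946 (ENSMUSG00000087291.1, annotated as a processed transcript) occupies chr11:3530157-3536856 on the plus strand. Gm11946 therefore lies wholly inside Smtn, in the 5′ part of its 23090 bases. The annotation gave Smtn 10 transcripts with 9 start sites and 4380 exonic bases, and Gm11946 2 transcripts and 4346 exonic bases. Of the exonic bases of Gm11946, 714 (16.4%) were also exonic in Smtn, and the other 83.6% fell into Smtn introns. The short Smtn transcript, Smtn-201, started 12.7 kb into the gene, 2.22 kb from the start of Gm11946 and pointing away from it. The values used here count all transcripts of a gene together, so the long and short forms of smoothelin were not resolved. The library kit does not mark strand, so that reads from exons shared by both genes, or from unspliced Smtn RNA across the Gm11946 exons, cannot be told apart from Gm11946 reads.

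**Figure D1:**
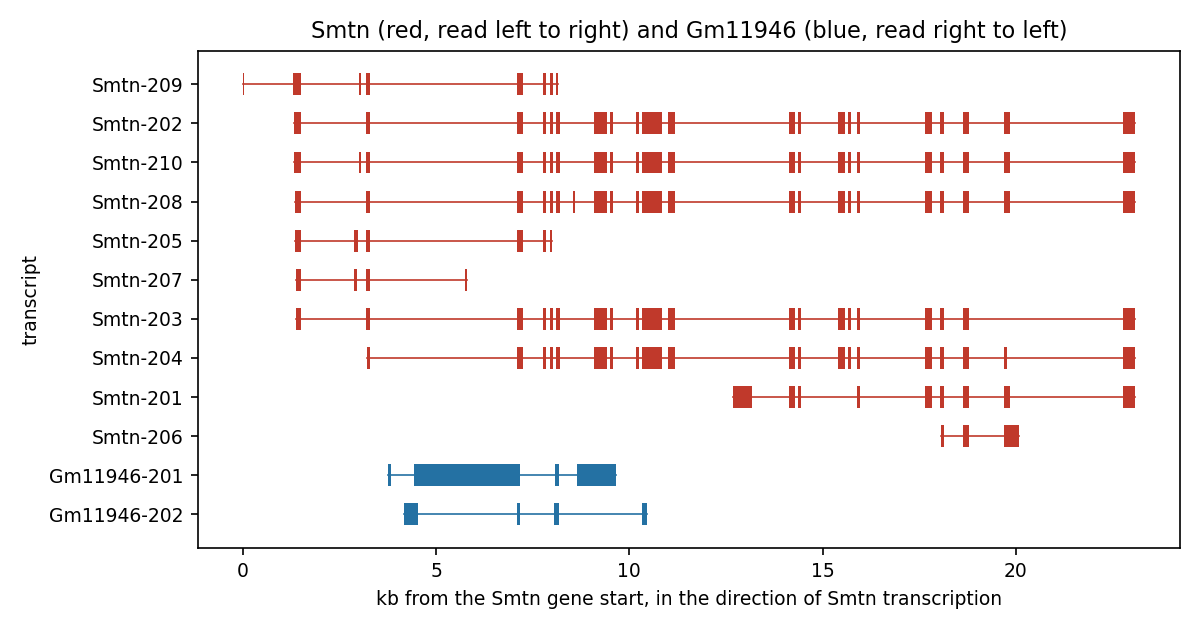
Transcripts of Smtn (red) and Gm11946 (blue), with boxes for exons, by distance in kb from the Smtn gene start along the direction of Smtn transcription. Both Gm11946 transcripts lie between the first exons and the middle of Smtn, and upstream of the start of the short transcript Smtn-201.

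A start region of each gene is shown so that the promoter-side sequence of the pair can be compared. They are RefSeq starts, which for Gm11946 differ from those of the GENCODE transcripts, and for Smtn the window covers 4 of the 9 start sites of the GENCODE transcripts. Each window holds 250 bases before and 50 after a RefSeq start site (GRCm38.p6), read in the direction of the gene. The Smtn window is chr11:3539243-3539542 on the minus strand, and the first of 5 windows listed for Gm11946 is chr11:3530114-3530413 on the plus strand. Capitals mark matches to CCAAT or GGGCGG on either strand, CCAAT on the reverse strand being printed as ATTGG.
Smtn: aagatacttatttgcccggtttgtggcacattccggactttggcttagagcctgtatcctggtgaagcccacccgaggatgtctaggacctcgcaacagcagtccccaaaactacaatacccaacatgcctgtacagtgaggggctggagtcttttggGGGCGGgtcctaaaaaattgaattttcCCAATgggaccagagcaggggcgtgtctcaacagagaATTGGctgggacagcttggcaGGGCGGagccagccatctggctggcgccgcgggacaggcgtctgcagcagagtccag
Gm11946: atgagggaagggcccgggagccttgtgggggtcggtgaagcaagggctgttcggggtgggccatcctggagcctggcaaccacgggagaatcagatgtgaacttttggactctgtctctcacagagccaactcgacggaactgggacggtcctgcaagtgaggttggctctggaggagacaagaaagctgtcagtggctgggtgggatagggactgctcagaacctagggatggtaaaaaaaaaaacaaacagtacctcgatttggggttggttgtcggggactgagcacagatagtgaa
The Smtn window had a GC content of 56.3% and held CCAAT 65 bases before the start site, the same letters on the reverse strand 28 bases before it, and GGGCGG at 92 and 7 bases before it. Across all 32851 promoter windows of the table, 37.4% held CCAAT and 35.7% GGGCGG. Neither TATAAA, present in 13.6% of all windows, nor the CArG box, the site bound by serum response factor in many smooth muscle genes and present in 1.63% of windows, was found in the Smtn window. The first Gm11946 window had a GC content of 55.3% and none of the 4 motifs. Of its other windows, 3 held CCAAT, overlapping ones among them sharing a match, and 1 of these also held GGGCGG. No match says only that these letters are absent from these bases.

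All levels below are the authors' group means in TPM, a share of all transcripts that is corrected for gene length, with no value of single samples, so that the SD of a mean could not be computed. The authors' own errors of the fold changes were not used. Log2 ratios were computed from means to which 0.1 TPM had been added, and 1.5 times was taken as the limit for calling a level higher or lower, among genes at or above 0.1 TPM in either group. Relative to these ratios the median of all genes at or above 1 TPM in both groups lay at -0.10 in eyes, 0.10 in heart and -0.11 in spleen, and within 0.05 of 0 elsewhere. Tug1 itself was at 2.21% of its wild-type mean in Tug1-/- testes and at 0.0825% to 0.512% in the other 7 tissues. In rescue testes it was at 4.003%. Of 32 markers of the 8 tissues, 31 were highest in the labelled tissue, the exception being Pdgfra, a fibroblast gene that was highest in brain.

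In wild-type tissue, Smtn ranged over 38.5-fold between tissues. It was highest in MEFs at 92.3 TPM, followed by heart at 63.2, prostate at 52.8 and eyes at 32.9 TPM. Spleen had 13.2, brain 5.04, testes 4.22 and liver 2.40 TPM. Testes and liver thus had the lowest wild-type Smtn levels. Gm11946 was far lower in every wild-type tissue in which it was listed. Its highest wild-type mean was 1.44 TPM in prostate, and MEFs had 0.373, eyes 0.225, heart 0.107 and testes 0.106 TPM. Spleen had 0.0592 and brain 0.0484 TPM. Whether neighbours in these orders differ beyond the spread among mice was not tested.

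In testes, both genes were several times higher in Tug1-/- than in wild-type mice. Mean Smtn was 4.22 TPM in wild type, 38.1 TPM in Tug1-/- and 35.8 TPM in rescue testes. Tug1-/- was thus 9.03 times wild type, a log2 ratio of 3.14 that ranked 20 among 32465 genes. Mean Gm11946 was 0.106 TPM in wild type, 4.68 TPM in Tug1-/- and 4.99 TPM in rescue testes. Its ratio of means was 44.0, and its log2 ratio of 4.53 ranked 7. With a wild-type mean this low the log2 ratio depended on the amount added, and was 5.33 with 0.01 TPM and 2.36 with 1 TPM. Of all genes compared in testes, 4.85% were higher by more than 1.5 times and 5.43% lower, and both Smtn and Gm11946 were among the higher ones. This contrast chose the pair, so the count of 2 carries no weight of its own.

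Rescue testes resembled Tug1-/- testes in both genes. For Smtn, rescue was 0.939 times Tug1-/- (log2 ratio -0.09) and for Gm11946 1.07 times (log2 ratio 0.09), neither past 1.5, where 3.3% of 32185 genes were higher and 6.49% lower. Against wild type, the log2 ratio of rescue was 3.05 for Smtn, rank 20 among 32332 genes, and 4.62 for Gm11946, rank 2 (5.43 with 0.01 TPM added and 2.44 with 1 TPM). In that comparison 4.67% of genes were higher and 8.25% lower. These 3 comparisons share their libraries pairwise and are not independent of each other.

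**Figure D2:**
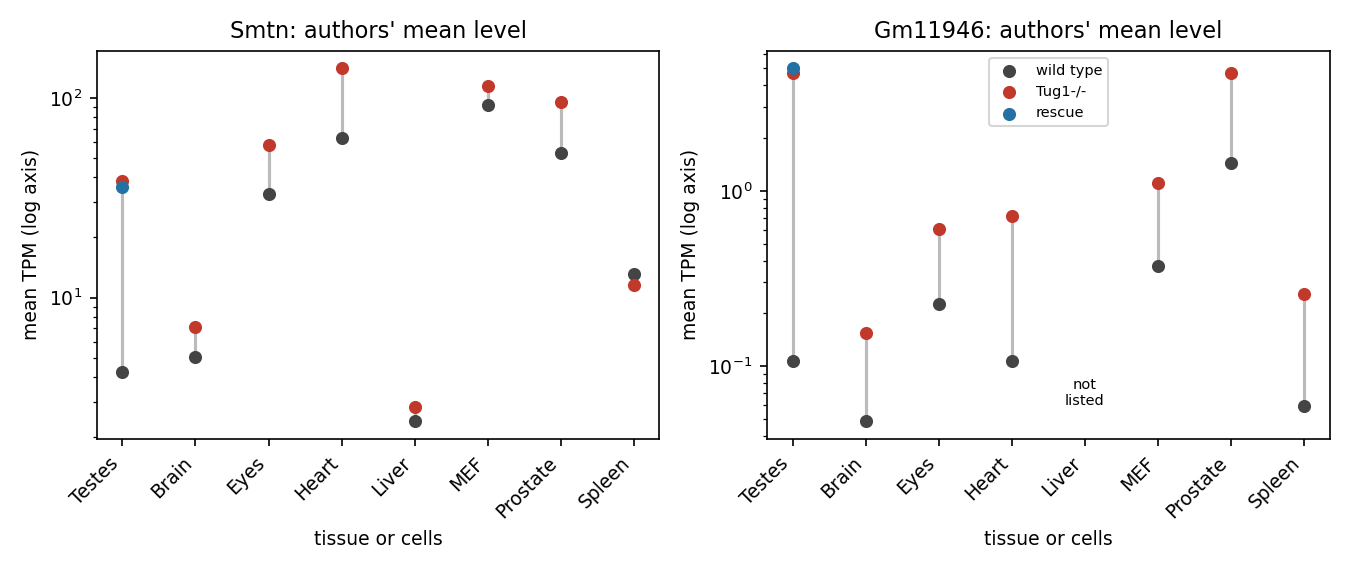
Authors' mean TPM of Smtn (left) and Gm11946 (right) on a log axis, by tissue, for wild type (grey), Tug1-/- (red) and, in testes, rescue (blue). Each point is 1 group mean, drawn without an error. The testes means of Tug1-/- and rescue sit together, far above wild type, and spleen is the single tissue in which the Smtn mean of Tug1-/- lies below that of wild type.

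Outside the testes, the Smtn ratio was smaller and varied by organ. Heart had the largest, with means of 63.2 TPM for wild type and 140 TPM for Tug1-/- (2.22 times, log2 ratio 1.15), which ranked 159 of 20742 genes. In heart 4.04% of genes were higher by more than 1.5 times and 5.26% lower. As a difference in level, heart had the largest gap of all 8 tissues, 77.3 TPM, compared with 33.9 TPM in testes.

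Prostate and eyes were also past 1.5. Prostate, a gland rich in smooth muscle, had 52.8 TPM in wild type and 95.8 in Tug1-/- (log2 ratio 0.86, with 8.19% of genes higher and 5.66% lower). Eyes had 32.9 and 58.4 TPM (log2 ratio 0.82, with 5.07% of genes higher and 7.87% lower). The prostate value rests on 2 Tug1-/- mice.

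The other 4 tissues were within 1.5 times for Smtn. Brain had 5.04 TPM in wild type and 7.08 in Tug1-/- (log2 ratio 0.48, with 3.83% of genes higher and 8.69% lower). MEFs had 92.3 and 115 TPM (log2 ratio 0.31, with 6.07% higher and 7.02% lower). Liver had 2.40 and 2.84 TPM (log2 ratio 0.23, with 6.28% higher and 4.51% lower). Spleen had 13.2 and 11.6 TPM (log2 ratio -0.19, with 6.76% higher and 9.2% lower). Smtn was therefore past the limit on the higher side in 4 of 8 tissues (2 of 8, testes and heart, at a limit of 2) and on the lower side in 0 of 8. Ranked by level in Tug1-/- tissue, the order became heart, MEFs, prostate, eyes, testes, spleen, brain and liver, and testes had moved ahead of spleen and brain.

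Gm11946 was past 1.5 on the higher side in 7 of the 7 tissues in which it was listed, but in 4 with 1 TPM added to each mean and in 3 with a minimum of 1 TPM. In brain and spleen it passed the minimum of 0.1 TPM through its Tug1-/- mean alone, so that a call there could only be on the higher side. Prostate, where it was most abundant, had 1.44 TPM in wild type and 4.72 in Tug1-/- (3.28 times, log2 ratio 1.65). Heart had 0.107 and 0.721 TPM (log2 ratio 1.99), which ranked 26 of 20742 genes (2.64 with 0.01 TPM added and 0.64 with 1 TPM). MEFs had 0.373 and 1.11 TPM (log2 ratio 1.36, or 0.62 with 1 TPM added). In these 3 tissues the gene stood at a mean of 155, 35.5 and 33.2 normalised reads per library. Eyes had 0.225 and 0.605 TPM (log2 ratio 1.11, or 0.39 with 1 TPM added) at 25.2 normalised reads. Spleen had 0.0592 and 0.257 TPM (log2 ratio 1.16, or 0.25 with 1 TPM added) at 10.6 normalised reads. Brain had 0.0484 and 0.155 TPM (log2 ratio 0.78, or 0.14 with 1 TPM added) at 1.38 normalised reads, so that its brain ratio rests on very few reads. Smtn, by comparison, stood at between 108 normalised reads in brain and 8871 in heart. Normalised reads are not listed for testes.

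The level of Gm11946 relative to Smtn also differed between genotypes. In testes Gm11946 was at 2.52% of the Smtn TPM in wild type, 12.3% in Tug1-/- and 13.9% in rescue. In prostate the share was 2.73% in wild type and 4.93% in Tug1-/-, and in spleen 0.448% and 2.22%. Heart, MEFs and eyes had shares of 0.169%, 0.404% and 0.685% in wild type and 0.513%, 0.968% and 1.04% in Tug1-/-. The share was higher in Tug1-/- in 7 of 7 tissues, brain included (0.960% and 2.19%). In spleen the Smtn mean was lower and the Gm11946 mean higher in Tug1-/-. With ratios centred on the median of genes at or above 1 TPM in both groups, the spleen Smtn log2 ratio was -0.08. Gm11946 passed the minimum of 0.1 TPM in spleen through its Tug1-/- mean alone. The log2 ratio of Gm11946 exceeded that of Smtn in 7 of 7 tissues with 0.1 TPM added to each mean, but in 3 of 7 with 1 TPM added. Across the 15 group means with both genes listed, the levels had a Pearson r of 0.568, as a description of points that share tissues and libraries. The part that reads of unspliced Smtn RNA have in the Gm11946 values was not tested.

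Because smoothelin marks contractile smooth muscle, 20 other genes of that programme were set beside it. In testes 4 of the 20 were higher by more than 1.5 times (0 at a limit of 2) and 0 lower, with a median log2 ratio of 0.33 compared with 0.03 over all genes, of which 4.85% were higher and 5.43% lower. The highest of them were Des (desmin), from 4.09 to 8.12 TPM (log2 ratio 0.97), Tpm2 (a tropomyosin, 0.82) and Cnn1 (calponin, 0.78). The lowest were Actg2 (enteric smooth muscle actin), from 440 to 352 TPM (log2 ratio -0.32), Ppp1r12b (a myosin phosphatase subunit, near 0.00) and Synm (synemin, 0.06). In wild-type testes Actg2 stood far above Acta2 (76.7 TPM) and Myh11 (21.7 TPM) of the same list. In wild-type prostate it stood below both, at 631 TPM beside 2325 and 948 TPM. Which cells of the testes hold the Actg2 RNA was not tested. None of the 20 reached the Smtn ratio of 3.14. In bulk tissue, more smooth muscle cells and more RNA per cell cannot be told apart.

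In rescue over wild-type testes, with a list median of 0.08, 0 of the 20 were higher and 1 lower, beside 4.67% and 8.25% of all genes. The ratios lay between -1.53 for Pgm5, a protein of muscle adhesion sites, and 0.50 for Myl9, a myosin light chain. Csrp1 (0.38) and Cnn1 (0.28) followed Myl9, and Actg2 (-0.47) and Synpo2 (-0.30) followed Pgm5. In rescue over Tug1-/- testes, with a list median of -0.21, 0 were higher and 4 lower (1 at a limit of 2), beside 3.3% and 6.49% of all genes, led by Pgm5 (-1.80), Synpo2 (-0.87) and Des (-0.80), and the highest were Myl9 (0.09), Hspb6 (0.04) and Ppp1r12b (near 0.00). Smtn was within the limit in rescue over Tug1-/- testes, as were all of the 20 list genes but the 4 lower ones. Des was 1 of these 4, at 4.62 TPM in rescue and 8.12 TPM in Tug1-/-.

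In the other organs the smooth muscle genes were mostly close to wild type. The list median was -0.12 in heart, 0.07 in prostate, 0.12 in eyes, -0.16 in brain, -0.10 in MEFs, 0.31 in liver and -0.15 in spleen, where the median of all genes was 0.09, 0.04, -0.11, -0.03, 0.04, 0.02 and -0.12. In heart 0 of 20 were higher and 0 lower, beside 4.04% and 5.26% of all genes. The lowest were Cnn1 (-0.56), Tpm2 (-0.47) and Actg2 (-0.45). The highest were Ppp1r12b (0.21), Des (0.26) and Myocd (0.31), a coactivator of smooth muscle genes. In heart 7 of the 20 lay above 0, Des and Tpm1 among them, which had 693 and 2752 TPM in wild type. Which muscle cells of the heart hold the RNA of each list gene was not tested. In prostate 0 were higher and 0 lower, beside 8.19% and 5.66% of all genes. The ratios ran from -0.18 (Myocd), -0.07 (Tpm2) and -0.05 (Myh11, smooth muscle myosin) to 0.12 (Synpo2), 0.14 (Lmod1) and 0.21 (Kcnmb1). Smtn exceeded all 20 in both organs, and in eyes and brain too.

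In eyes 4 of 20 were higher (0 at a limit of 2) and 0 lower, beside 5.07% and 7.87% of all genes, led by Tpm2 (0.75), Des (0.71) and Actg2 (0.65), with Mylk (-0.22), Cald1 (-0.09) and Acta2 (-0.04) lowest. In eyes, then, Smtn at 0.82 was close to the highest of the list. In brain 0 were higher and 1 lower (0 with 1 TPM added or as minimum), beside 3.83% and 8.69% of all genes. The lower one was Cnn1 at -1.14, with Myh11 at -0.55 and Tagln at -0.39 next. Myocd (0.33), Tpm1 (0.03) and Hspb6 (0.02) were highest. In MEFs 0 were higher and 2 lower (0 at a limit of 2), beside 6.07% and 7.02% of all genes, Des (-0.61) and Pgm5 (-0.61), with Synm (-0.37) next, and Ppp1r12b (0.47), Mylk (0.09) and Lmod1 (0.08) highest. Ppp1r12b was the single list gene above Smtn in MEFs.

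Liver and spleen, where Smtn was within 1.5 times, differed from this pattern. In liver 5 of the 18 list genes at or above the minimum were higher (1 with 1 TPM added, 0 at a limit of 2) and 1 lower, beside 6.28% and 4.51% of all genes, with Acta2 (0.88), Myh11 (0.86) and Actg2 (0.70) highest and Tpm2 (-1.16), Hspb6 (-0.40) and Pgm5 (-0.23) lowest. In spleen 0 of 20 were higher and 0 lower, beside 6.76% and 9.2% of all genes. The ratios ran from -0.45 (Synpo2), -0.40 (Kcnmb1) and -0.34 (Acta2) to 0.13 (Hspb6), 0.16 (Cnn1) and 0.27 (Myocd). The Smtn ratio lay below that of 10 of these 18 genes in liver and of 12 of the 20 in spleen.

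**Figure D3:**
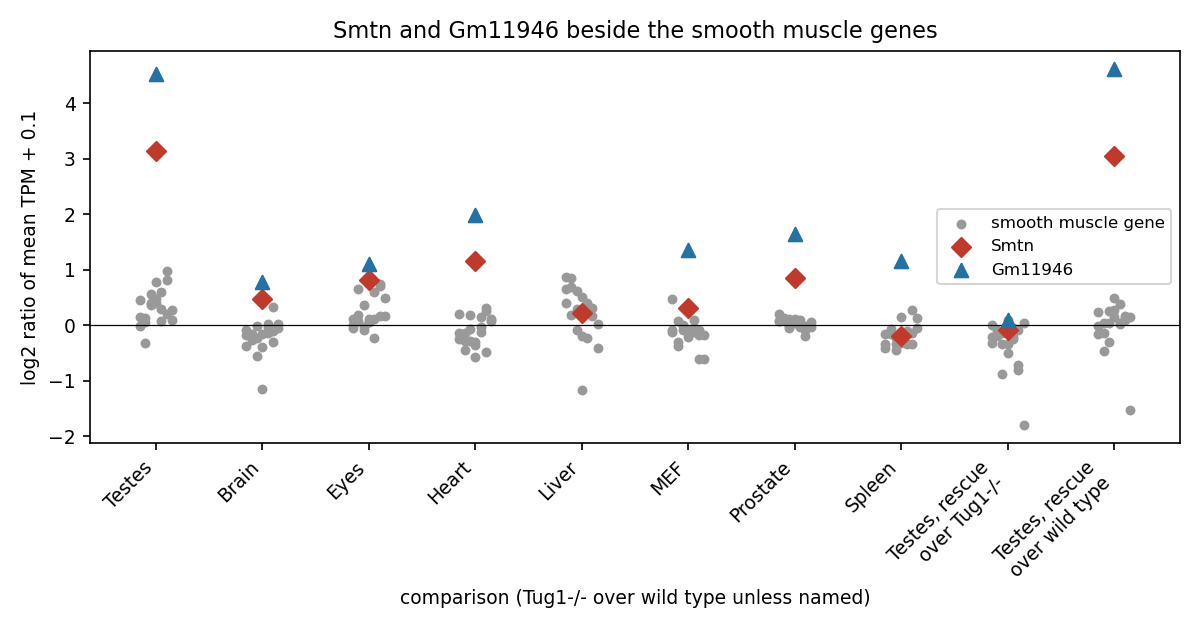
Log2 ratios of mean TPM + 0.1 of Smtn (red diamonds), Gm11946 (blue triangles) and the smooth muscle genes (grey points) in each comparison. In Tug1-/- over wild type, Smtn lies above every grey point in testes, brain, eyes, heart and prostate, below 1 in MEFs, and within the grey points in liver and spleen.

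The smoothelin-like genes, which share a calponin homology domain with smoothelin, did not follow Smtn in testes. Smtnl1 was at 10.8 TPM in wild type, 11.1 in Tug1-/- and 10.3 in rescue testes. Smtnl2 was at 3.797, 2.75 and 2.62 TPM, a log2 ratio of -0.45 in Tug1-/- over wild type. Wild-type testes thus held more Smtnl1 than Smtn, and Tug1-/- testes the reverse. In eyes Smtnl1 was higher along with Smtn, at 40.5 TPM in wild type and 67.3 in Tug1-/- (log2 ratio 0.73). In heart it was lower, at 1.07 and 0.0358 TPM (log2 ratio -3.11). In prostate Smtnl2 passed the limit at low levels, 0.229 and 0.451 TPM (log2 ratio 0.74), and in the remaining comparisons of Tug1-/- with wild type neither gene passed it at 0.1 TPM or more.

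Markers of other cells in the testes also differed between these groups. The shares of all genes to set beside their counts are 4.85% higher and 5.43% lower in Tug1-/- over wild type, 4.67% and 8.25% in rescue over wild type, and 3.3% and 6.49% in rescue over Tug1-/-. Leydig cell genes were higher by more than 1.5 times in 3 of 6 in Tug1-/- and summed to 490 TPM in wild type, 751 TPM in Tug1-/- and 649 TPM in rescue. In rescue 2 of 6 were higher than in wild type, and 2 of 6 were lower than in Tug1-/-. Insl3, a hormone of these cells, was at 56.9 TPM in wild type, 144 TPM in Tug1-/- and 65.5 TPM in rescue, while Cyp11a1, an enzyme of steroid synthesis, was at 43.2, 75.5 and 82.96 TPM. The 6 Sertoli cell genes summed to 177, 245 and 276 TPM, with 0 of 6 past the limit in Tug1-/- and 3 of 6 in rescue over wild type. Genes of spermatogonia summed to 108, 112 and 120 TPM with 1 of 6 lower in Tug1-/-, and those of spermatocytes to 943, 1015 and 1078 TPM with 0 of 6 past the limit. Those of round spermatids summed to 1094, 1129 and 1087 TPM and those of elongating spermatids to 52562, 49801 and 48598 TPM, again with 0 of 6 each. Endothelial genes summed to 16.6, 17.7 and 17.6 TPM with 0 of 6 past the limit.

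Genes of the epididymis and vas deferens, ducts with a muscle coat that adjoin the testis, summed to 2740 TPM in wild type, 1396 TPM in Tug1-/- and 599 TPM in rescue testes. In rescue testes 589.6 of the 599 TPM came from Cst8 alone, so that sum says little about the other genes. In Tug1-/- 4 of 6 were lower and 1 higher. Lcn5, a secreted protein of the epididymis, was at 680 TPM in wild type, 0.0155 in Tug1-/- and 0.132 in rescue testes, and Crisp1 was at 427, 760 and 0.348 TPM. Lcn8 was at 799, 0.244 and 0.160 TPM. Against wild type, 5 of 6 were lower in rescue. Lcn5, Lcn8, Spink12 and Defb21 were lower in both groups in which Smtn was high, while Cst8 was within the limit in both, at 747, 626 and 589.6 TPM. The part that duct tissue or Leydig cells have in the Smtn values was not tested.

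Smtn and Gm11946 lie in a stretch of chromosome 11 in which other genes also differed between genotypes. The gene starts of Smtn and Tug1 are 109 kb apart, and the gap between the genes is 99.2 kb. On the side of the Smtn 3′ end, Selenom, a selenoprotein gene that ends 172 bases from the end of Smtn, was higher by more than 1.5 times in 7 of 8 tissues, with log2 ratios from 0.51 in spleen to 1.09 in heart. In testes Selenom was at 6.24 TPM in wild type, 13.3 TPM in Tug1-/- and 12.1 TPM in rescue. Its ratio was smaller than that of Smtn in testes and heart, and larger in the 6 other tissues.

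Inpp5j, a phosphoinositide phosphatase gene beyond Selenom, was higher in 3 of 7 tissues, from 0.12 in testes to 1.28 in heart. Pla2g3, a secreted phospholipase gene farther on the same side, was higher in 5 of 7 tissues, from -0.12 in prostate to 0.86 in heart. One of these was MEFs, with 0.0756 TPM in wild type and 0.174 in Tug1-/- at 6.07 normalised reads. There Pla2g3 passed the minimum of 0.1 TPM through its Tug1-/- mean alone, so that a call could only be on the higher side. In testes Pla2g3 was at 2.31 TPM in wild type, 4.10 TPM in Tug1-/- and 4.01 TPM in rescue.

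Between Smtn and Tug1 stand 3 processed pseudogenes, which can share reads with their parent genes and are uncertain for that reason. Gm11949 was at 0.0951 TPM in wild-type, 0.471 in Tug1-/- and 0.612 in rescue testes. Gm11951 was at 0.433, 1.91 and 1.29 TPM, and Gm11950 was listed at 0 in wild type, with 0.370 TPM in Tug1-/- and 0.349 TPM in rescue. Outside testes Gm11951 had 0.460, 1.18 and 1.44 normalised reads per library in liver, MEFs and prostate, too few to read a ratio from. In testes all 3 were low and, like Smtn, had higher means in Tug1-/- and rescue testes than in wild type.

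On the far side, Morc2a, a chromatin regulator gene that starts next to Tug1 on the opposite strand and 109 kb from Smtn, was lower in 5 of 8 tissues, from -3.33 in liver to -0.16 in testes. Its testes means were 52.9, 47.3 and 46.2 TPM in wild type, Tug1-/- and rescue. Testes thus had the largest Smtn ratio of the 8 tissues and the Morc2a ratio nearest to 0.

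**Figure D4:**
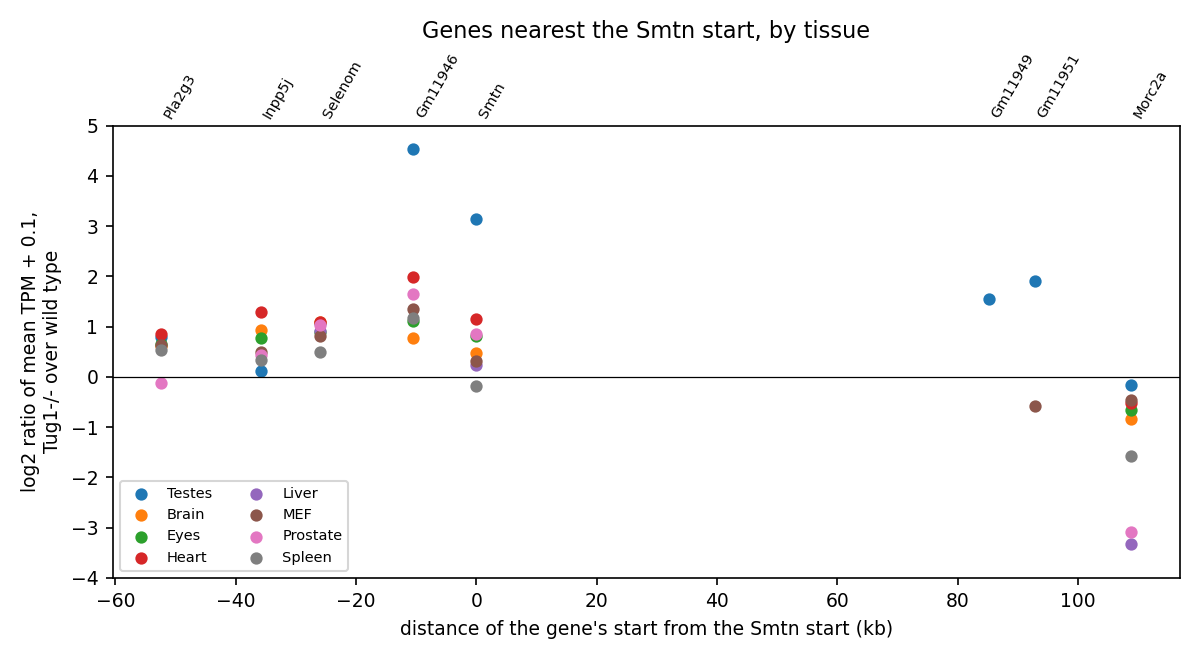
Log2 ratios of mean TPM + 0.1, Tug1-/- over wild type, of the genes nearest the Smtn start, by the distance of their start in kb (negative on the side of the Smtn 3′ end), with 1 colour per tissue and genes listed at 0 left out. Testes points of Smtn and Gm11946 stand at 3.14 and 4.53, and the Morc2a points lie below 0.

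Likeness of pattern was described by Pearson's r, over group means for levels and over tissues for log2 ratios, with no test, since these points share libraries and tissues. For Smtn levels over 17 group means, the nearest of 16399 genes were Cd151 (0.933), Jph2 (0.917), Lamb2 (0.900), Inppl1 (0.894) and Map2k3os (0.892). Jph2, a junction protein of muscle cells, was highest in heart, at 199 TPM in wild type and 244 in Tug1-/-, and Cd151 encodes a membrane tetraspanin and Lamb2 a laminin of basement membranes. In testes, unlike Smtn, Jph2 was at 3.13 TPM in wild type, 3.29 in Tug1-/- and 2.90 in rescue.

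For the Smtn log2 ratios over 8 tissues, the nearest of the 721 genes past the limit in testes that were also listed in every tissue and at or above 1 TPM in at least 1 group were Cnn3 (0.974), Uckl1os (0.966), Tcap (0.963), mt-Nd3 (0.962) and Ccnd2 (0.948). Cnn3, a calponin, was at 7.54 TPM in wild-type testes, 12.96 in Tug1-/- and 11.3 in rescue. Tcap, a sarcomere protein, was at 0.212, 1.81 and 0.124 TPM, so that its rescue mean, unlike that of Smtn, lay below wild type. For Gm11946, with no liver value, levels over 15 group means were most like Mrpl54 (0.736), Gm26620 (0.706), Gstm2 (0.699), Hoxd8 (0.691) and 0610009E02Rik (0.679). Its log2 ratios over 7 tissues were most like Socs3 (0.979), Tspan4 (0.976), Cmtm3 (0.974), Ltbp1 (0.972) and Timp1 (0.966). With one testes point far from the others, such r values rest largely on testes.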

How the data were processed

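The authors sequenced polyadenylated RNA (TruSeq RNA v2, paired-end), aligned it with STAR to GRCm38, counted uniquely mapped reads per GENCODE M16 gene with featureCounts, removed genes under 3 reads in every replicate and fitted DESeq2 models; the labels add CASAVA 1.8.2. The strand setting is not given in the sources used here. The deposited tables hold the authors' mean TPM of each group and, outside testes, the authors' mean normalised count over the libraries of a tissue (a depth-scaled signal). They also hold the authors' own fold changes, standard errors, statistics and p-values, which were not used. The tables hold no single-sample values, so depth per library is unknown and no SD of a group mean could be computed. No error or test is given, since the authors' comparison columns were left unused and the pair was chosen on this contrast.

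Log2 ratios were computed here from mean TPM plus 0.1 (Python 3.11.15, pandas 2.3.3), among genes at or above 0.1 TPM in either group, with a limit of 1.5 times, and the script was tested on simulated data. Coordinates stood in the tables; transcripts came from GENCODE M21, in which both genes have the same identifier and span, and start regions from RefSeq. RefSeq places Gm11946 starts elsewhere than GENCODE does. Genes named in the text are the pair, Tug1, the 3 highest and 3 lowest smooth muscle genes per comparison, the 4 genes with the nearest start on each side of the Smtn start, the 5 genes most like each of the pair in level or ratio, and members of lists of smoothelin-like genes, testis and duct cells and tissue markers. Examples from those lists were picked after their values were seen. The pair and the lists were chosen with earlier results of these data known. Alternatives were pseudocounts of 0.01 and 1 TPM, median centring, no minimum, a minimum of 1 TPM and a limit of 2.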

Additional observations from a re-analysis of the deposited data

How the results depend on the processing

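The Smtn ratios kept their size within 1.5 times in all 10 comparisons under pseudocounts of 0.01 and 1 TPM and under median centring. The Gm11946 log2 ratios, at low levels, moved with the pseudocount. With 0.01 TPM they became 5.33 in testes, 1.498 in brain, 2.64 in heart, 1.95 in spleen and 5.43 in rescue over wild-type testes. With 1 TPM, testes had 2.36, heart 0.64, MEFs 0.62, eyes 0.39, spleen 0.25, brain 0.14 and rescue over wild-type testes 2.44. Gm11946 was past 1.5 in 4 tissues with a pseudocount of 1 TPM and in 3 with a minimum of 1 TPM, and Smtn was past a limit of 2 in 2 tissues. No direction of either gene turned. At a limit of 2, the smooth muscle genes counted as higher went to 0 in testes, eyes and liver, and those counted as lower to 0 in MEFs and to 1 in rescue over Tug1-/- testes. Over all genes, the counts past the limit changed by more than 1.5 times in every comparison and direction with 1 TPM added, with a minimum of 1 TPM and at a limit of 2. In testes the 1576 higher genes became 333, 615 and 482. With 0.01 TPM added, the higher genes in heart became 1265 in place of 838. Among smooth muscle genes of the liver 3 were higher with a minimum of 1 TPM and 1 with 1 TPM added, in brain 0 were lower under either, and in heart 1 was lower after median centring.

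Leaving out single mice could not be run, since the tables hold group means, and for the same reason no normalised-count model was fitted. No paired analysis was possible because the columns carry no replicate numbers.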
